A study of Mus musculus with 2 samples.

Results

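Expression of 7 cadherin genes (*Cdh1*, *Cdh2*, *Cdh3*, *Cdh5*, *Cdh6*, *Cdh11* and *Cdh13*) was described across the cell types of the mouse thoracic aorta. The genes were taken by symbol, 7 of 32287 features counted, and each symbol belonged to a single gene ID. The samples were aortas 1 and 2 (n = 2, 1 group) from C57BL/6J mice of the genotype GFPiSMC, analyzed at 12 weeks of age. In these animals intraperitoneal tamoxifen, started at 3 weeks of age and given at 1 mg a day over 5 days, activated Cre recombinase in cells that use the *Myh11* promoter and switched a membrane reporter from tdTomato to GFP. All animals therefore carried the Cre transgene and the reporter and had received tamoxifen. Per the study's methods the mice were male. After enzymatic digestion of each aorta in the cold, living singlets were collected by flow cytometry irrespective of GFP. With no treated group, the comparisons were between cell types of the same aortas.

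Cadherins are calcium-dependent adhesion receptors that bind their own kind on the neighbouring cell. In classical cadherins the cytoplasmic tail binds p120-catenin and β-catenin, and α-catenin links this complex to actin at the adherens junction. *Cdh1*, *Cdh2* and *Cdh3* encode the type I cadherins E-, N- and P-cadherin. *Cdh5* (VE-cadherin), *Cdh6* (K-cadherin) and *Cdh11* (OB-cadherin) are type II. *Cdh13* encodes T-cadherin, which is held by a lipid anchor and has no cytoplasmic tail, so it is not a classical cadherin in the strict sense although it was listed with them. VE-cadherin is known as the main cadherin of endothelial junctions, and N- and T-cadherin are known from vascular smooth muscle.

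After filtering and removal of doublets, 6543 cells of aorta 1 and 4609 cells of aorta 2 were analyzed, with a median of 5671 and 5392 unique molecular identifiers (UMIs, each counting 1 captured RNA molecule) per cell. Of these, 2077 and 1514 were smooth muscle cells (SMCs), 1497 and 1058 fibroblasts, 785 and 726 endothelial cells and 280 and 156 mesothelial cells, the cells that line the outer surfaces of organs. Their median depths were 8252 and 7917 UMIs in SMCs, 5933 and 5726 in fibroblasts, 3672 and 3015.5 in endothelial cells and 6620.5 and 6485.5 in mesothelial cells. Myeloid cells, lymphocytes and erythroid cells numbered 906 and 574, 623 and 365, and 29 and 14. Clusters were named from marker genes, so an SMC here is an SMC-like cell and likewise for the other types, and 346 and 202 cells stayed unnamed. The name of 1 SMC cluster, led by *Rgs5* and *Lrrtm3* (483 and 419 cells), depended on the naming rule, because a pericyte marker (*Rgs5*) and no SMC marker stood among its 10 leading genes. The 6 SMC markers summed to 22465 and 24511 CPM (UMIs per 1e6 UMIs) in it, and *Myh11* was detected in 99.8% and 99.3% of its cells. The sum was 42493 to 49352 CPM in the clusters led by *Hspa1a*, *Sncg* and *Mylk4*. It was 18693 and 20398.5 CPM in the cluster led by *Tnfrsf11b*, which had weaker SMC markers. *Myh11* was detected in 60.7% and 58.8% of the cells of the *Tnfrsf11b* cluster, and *Cnn1* in 45.9% and 42.5%. The 5 pericyte markers summed to 3292 and 2739 CPM in the *Rgs5* cluster, against 290.4 to 1067 CPM in the other SMC clusters. *Vtn* was at 0 in both aortas and *Higd1b* at 0.823 and 0 CPM. The other pericyte markers were highest in the *Rgs5* cluster in both aortas. *Rgs5* stood at 2827 and 2332 CPM, *Kcnj8* at 222 and 195 CPM (20.7 to 143 CPM in the others) and *Abcc9* at 242 and 211 CPM (79.7 to 208 CPM). When a stricter rule left the *Rgs5* cluster unnamed, the mean SMC level was 71.8 instead of 60.1 CPM for *Cdh6* and 4.02 instead of 3.07 CPM for *Cdh3*, and no cadherin call changed. No cadherin was used for clustering or naming. Endothelial clusters had to express *Pecam1* and *Egfl7*, which were detected in 97.1% to 98.2% and in 92.7% of endothelial cells. The 2 barcode sets shared 18 barcodes.

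Levels are given as CPM, the UMIs of a gene per 1e6 UMIs of a cell type in an aorta. The analyzed cells held 9 UMIs of *Cdh1*, 247 of *Cdh2*, 459 of *Cdh3*, 1769 of *Cdh6*, 3548 of *Cdh5*, 4299 of *Cdh11* and 10189 of *Cdh13*, both aortas together. In each aorta the level of *Cdh5* and *Cdh13* was highest in endothelial cells, that of *Cdh6* in SMCs, and that of *Cdh2*, *Cdh3* and *Cdh11* in mesothelial cells. The plot of levels by cell type shows all 7 genes.

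**Figure D1:**
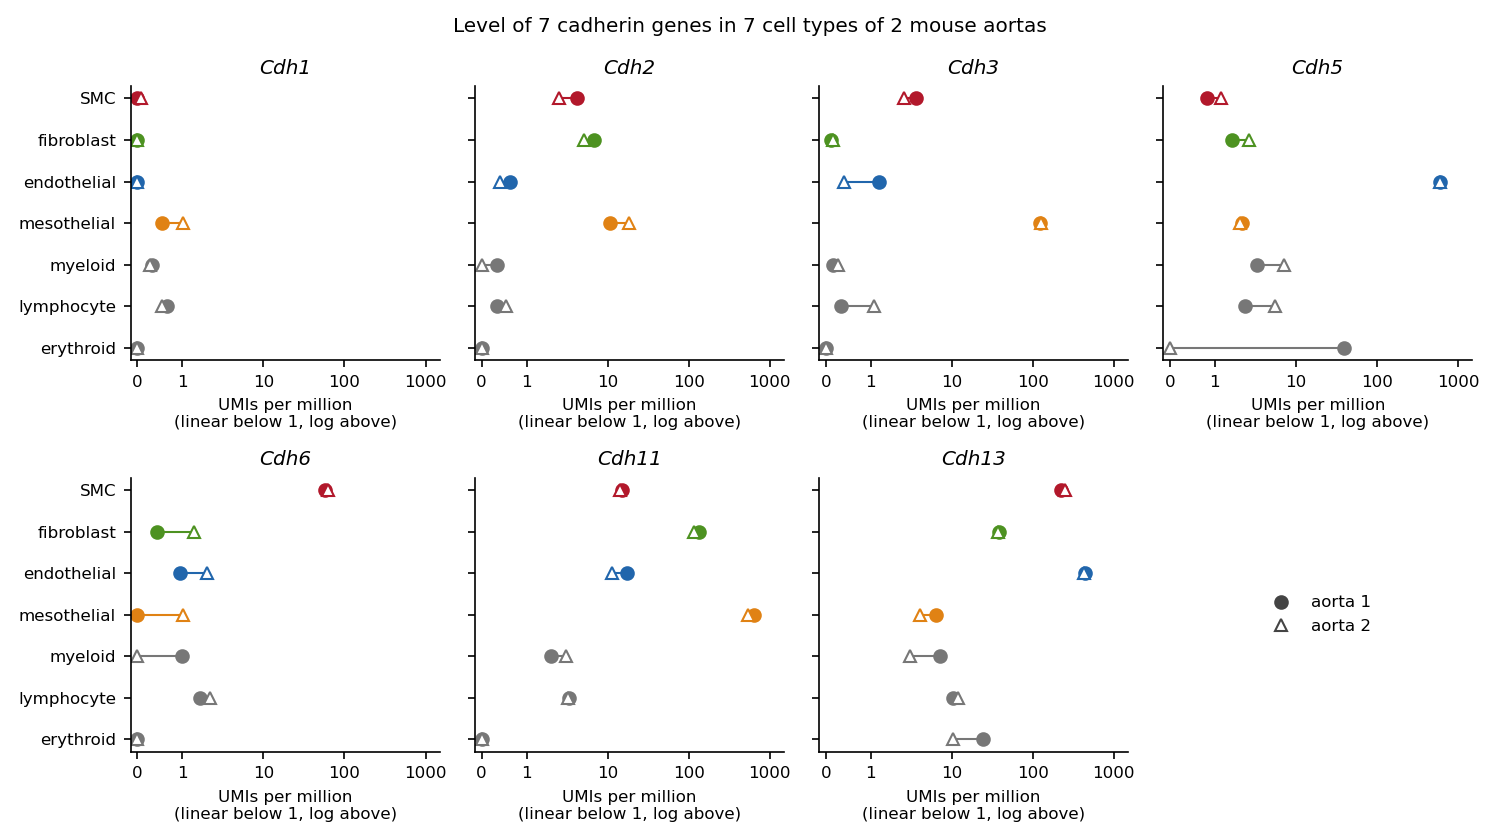
Level in CPM of each cadherin (x axis, linear below 1 and logarithmic above) in 7 cell types (y axis). Filled circles are aorta 1 and open triangles aorta 2, joined by a line. *Cdh5* stood at 597 and 603 in endothelial cells, *Cdh6* at 56.9 and 63.2 in SMCs, and *Cdh11* at 639 and 539.8 in mesothelial cells.

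SMCs, fibroblasts, endothelial cells and mesothelial cells were compared pairwise on UMIs summed per aorta and cell type, by the quasi-likelihood test of edgeR. P-values were adjusted by Benjamini-Hochberg over every gene in the fit. Calls required an adjusted p below 0.05 together with a log2 fold change beyond 1 in either direction. Log2 fold changes given without an aorta came from the other aorta alone and have no test. At low counts they were smaller in size than the CPM ratio of that aorta. They therefore do not measure how far the aortas differed. Of the 7 cadherins 6 were tested, because *Cdh1* did not pass the filter on low counts. The share of called genes among 12641 genes (those left after removing markers and clustering genes) is given beside each count. The cadherins and the gene lists described here were kept out of the clustering genes, so this background lacks the most variable genes and the lists do not. With those genes and the markers included, 24.6% to 29.6% of 13974 fitted genes were called. Between SMCs and fibroblasts 4 cadherins were called (background 23.7%), 3 of them higher in SMCs. Between SMCs and endothelial cells 4 were called (background 27.2%), again 3 higher in SMCs. Between SMCs and mesothelial cells 5 were called (background 27.0%), 2 higher in SMCs. Fibroblasts and endothelial cells differed in 4 (background 23.3%), 2 in each direction. Fibroblasts and mesothelial cells differed in 3 (background 22.5%), 1 of them higher in fibroblasts, and endothelial and mesothelial cells in 5 (background 23.2%), 2 of them higher in endothelial cells. The median absolute log2 fold change of the 6 tested cadherins ran from 1.69 (fibroblasts against mesothelial cells) to 5.81 (endothelial against mesothelial cells), where that of the background genes ran from 0.45 to 0.57, and that of all fitted genes from 0.50 to 0.62. The count between SMCs and endothelial cells was 2 among cells with 5000 to 25000 UMIs, where *Cdh2* and *Cdh3* were no longer called.

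**Figure D2:**
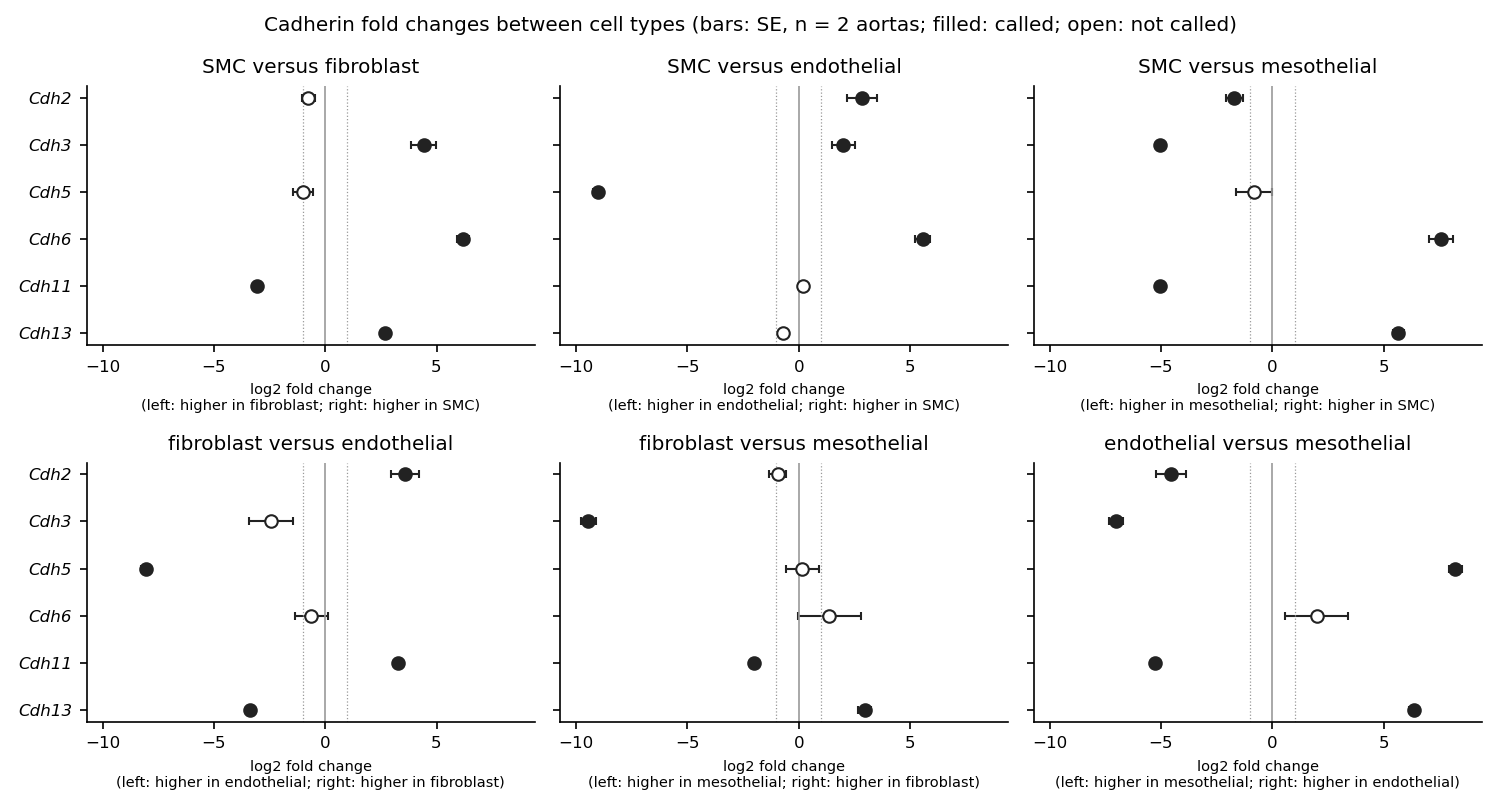
Log2 fold change (x axis) of 6 cadherins (y axis) in the 6 pairwise comparisons of cell types. Bars are the standard error (n = 2 aortas), filled points are called, open points are not, and dotted lines mark a log2 fold change of 1 in either direction. The largest values were those of *Cdh3* between fibroblasts and mesothelial cells (−9.45) and of *Cdh5* between SMCs and endothelial cells (−9.04). The first rested on 2 fibroblast UMIs and was −6.97 without UMI limits.

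*Cdh1*, the cadherin of most epithelia, was barely detected. Its 9 UMIs lay in lymphocytes (2 and 1), myeloid cells (2 and 1), mesothelial cells (1 and 1) and SMCs (0 and 1). Fibroblasts and endothelial cells held 0 UMIs in both aortas, which allows up to 0.321 and 0.467 CPM in fibroblasts and 0.943 and 1.20 CPM in endothelial cells (3 UMIs per library). No fold change was computed at this depth. A list of 5 epithelial markers (*Epcam*, *Krt5*, *Krt14*, *Cldn4* and *Cldn7*) summed to 27.4 and 50.6 CPM in mesothelial cells, with 2 of the markers at 0. Endothelial cells had a sum of 11.9 and 14.0 CPM, with 4 of the 5 markers at 0. Lymphocytes had a sum of 11.7 and 16.4 CPM and myeloid cells of 5.16 and 8.87 CPM, each with 3 markers at 0. In SMCs and fibroblasts the sum was between 1.48 and 4.67 CPM, and in erythroid cells it was 0.

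*Cdh2*, the cadherin of neural tissue and many mesenchymal cells, was detected at a low level. It stood at 4.19 and 2.55 CPM in SMCs, at 6.84 and 5.14 CPM in fibroblasts, at 10.7 and 18.2 CPM in mesothelial cells and at 0.629 and 0.399 CPM in endothelial cells. The 4 types did not overlap in any pair. Myeloid cells (2 and 0 UMIs), lymphocytes (1 and 1) and erythroid cells (0 in both aortas) held as few UMIs as endothelial cells. SMCs and fibroblasts held 101 and 97 UMIs over both aortas, and endothelial cells 3. The CPM ratio of SMCs to endothelial cells was 6.67 (95% interval 2.22 to 32.9, counting error only) and that of fibroblasts to endothelial cells 11.7 (3.87 to 57.5). Both differences were called (edgeR quasi-likelihood, adjusted p = 0.00155 and 9.27e-05), as was that between mesothelial and endothelial cells (ratio 25.3, 8.03 to 128, adjusted p = 1.12e-05). The fitted log2 fold changes were 2.83 ± 0.69, 3.59 ± 0.64 and −4.54 ± 0.67. They rested on those 3 endothelial UMIs. The values of a single aorta, which run small at low counts, were 2.12, 2.70 and −3.11 without aorta 2. Without aorta 1 the first 2 were 1.76 and 2.59. Among cells with 5000 to 25000 UMIs, where endothelial *Cdh2* was 1.09 CPM, the first was 1.36 and not called (edgeR adjusted p = 0.197), and the others were 2.32 and −3.07. With endothelial cells gated singly by *Pecam1* and *Egfl7* they were 1.52, 2.28 and −3.14, all called. Between SMCs and fibroblasts the log2 fold change was −0.76 ± 0.30 (SE) with an adjusted p of 0.0414, short of the fold threshold, which it passed without UMI limits (−1.18) and at resolution 0.5 of the clustering (−1.21).

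Within SMCs the cluster led by *Tnfrsf11b* and *Fst* stood at 15.6 and 16.8 CPM of *Cdh2* (13 and 8 UMIs in 135 and 80 cells), above the fibroblast level in both aortas. The cluster led by *Rgs5* and *Lrrtm3* stood at 1.10 and 0 CPM (4 and 0 UMIs), and the other SMC clusters at 0.760 to 5.75 CPM. Among fibroblasts the cluster led by *Dio2* and *Mmp3* was highest (12.3 and 7.32 CPM) and the others stood at 1.43 to 5.96 CPM. Mesothelial *Cdh2* was uneven as well. A small cluster of 19 and 5 cells, led by *Cxcl13* and *Enpp2* and also expressing *Wt1*, held 16 of 20 mesothelial UMIs in aorta 1 and 6 of 18 in aorta 2, and *Cdh2* stood there at 73.2 and 85.6 CPM. In the main mesothelial cluster, led by *Upk3b* and *Msln*, it stood at 2.44 and 13.1 CPM (4 and 12 UMIs, in 2 of 261 and 9 of 151 cells). With all mesothelial cells, *Cdh2* was higher than in SMCs (log2 fold change of SMCs over mesothelial cells −1.71 ± 0.38, edgeR adjusted p = 0.000875). Without the small cluster that value was −0.64 (adjusted p = 0.384), and the mesothelial mean was 7.76 CPM. It was −2.35 without aorta 1 and −0.99 without aorta 2. Against fibroblasts the log2 fold change was −0.95 ± 0.37 with all cells (adjusted p = 0.0508, not called) and 0.12 without the small cluster, and it was called at −1.04 in a fit of the 4 types alone.

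*Cdh3* was highest in mesothelial cells. P-cadherin is known from basal epithelia, and its gene stood at 124 and 125 CPM in mesothelial cells, which held 77.0% and 77.4% of all its UMIs. These UMIs lay almost entirely in the *Upk3b* cluster (139 and 134 CPM, 228 and 123 UMIs), and the small *Cxcl13* cluster held 3 UMIs in 19 cells of aorta 1 (13.7 CPM) and 0 in 5 cells of aorta 2. SMCs came next at 3.60 and 2.55 CPM and held 20.3% and 18.9%. Endothelial cells (1.26 and 0.399 CPM, 5 UMIs) and fibroblasts (0.107 and 0.156 CPM, 2 UMIs) had the lowest levels of the 4 types. The mesothelial level was 32.7-fold that of SMCs (log2 fold change of SMCs over mesothelial cells −5.03 ± 0.21, edgeR adjusted p = 1.84e-14) and 129.9-fold that of endothelial cells (endothelial over mesothelial cells −7.02 ± 0.33, adjusted p = 3.07e-13). The second value was −5.97 without aorta 2 and −5.65 among cells with 5000 to 25000 UMIs. Against fibroblasts the CPM ratio was 981 (95% interval 269 to 8130, adjusted p = 6.74e-15). The fitted value, −9.45, rested on 2 fibroblast UMIs and was −6.97 without UMI limits. The values of a single aorta, which run small at low counts, were −7.20 without aorta 1 and −7.31 without aorta 2. By CPM the aortas were alike, at 0.107 and 0.156 in fibroblasts and 124 and 125 in mesothelial cells.

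The low *Cdh3* level of SMCs was itself higher than that of fibroblasts (ratio 25, 95% interval 6.72 to 209.5, edgeR adjusted p = 6.70e-07) and endothelial cells (log2 fold change 1.99 ± 0.52, adjusted p = 0.00289). Relative to mesothelial cells, SMCs had 0.0290 and 0.0204 of the *Cdh3* level but no more than 0.00392 of the level of any of 6 mesothelial markers. The log2 fold change from fibroblasts, 4.42 ± 0.55, was 1.72 without UMI limits and 2.12 at resolution 0.5, both called, and 2.13 and 2.67 without aorta 1 and without aorta 2. That from endothelial cells was 1.34 without aorta 2, and among cells with 5000 to 25000 UMIs it was 0.57 and not called (edgeR adjusted p = 0.506). Within SMCs the *Cdh3* UMIs were unevenly spread. The cluster led by *Rgs5*, *Lrrtm3* and *Lamc3* held 0 UMIs in 483 and 419 cells. The clusters led by *Hspa1a*, *Sncg* and *Mylk4* stood at 3.83 to 5.09 CPM in aorta 1 and 2.32 to 3.30 CPM in aorta 2. The cluster led by *Tnfrsf11b* and *Fst*, at 4.79 and 14.7 CPM (4 and 7 UMIs), lay within that range in aorta 1 and above it in aorta 2. Endothelial cells exceeded fibroblasts in CPM by a ratio of 6.94 (1.14 to 72.8), which was not called (edgeR adjusted p = 0.0503). The fitted log2 fold change of fibroblasts over endothelial cells, −2.43 ± 0.98, rested on 2 and 5 UMIs. It was called in 3 other settings (−4.13 among cells with 5000 to 25000 UMIs, −2.45 at resolution 2 and −2.84 with gated endothelial cells), and it was 0.11 without UMI limits and −0.24 at resolution 0.5. The values of a single aorta, which run small at low counts, were −0.36 without aorta 1 and −1.34 without aorta 2. By CPM endothelial cells stood above fibroblasts in each aorta (1.26 and 0.399 against 0.107 and 0.156).

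*Cdh5* marked the endothelium. VE-cadherin holds endothelial cells together and controls the passage of cells and solutes. With endothelial cells defined by *Pecam1* and *Egfl7*, *Cdh5* stood at 597 and 603 CPM in them, and they held 96.5% and 95.6% of its UMIs. SMCs stood at 0.827 and 1.19 CPM, fibroblasts at 1.60 and 2.65 CPM and mesothelial cells at 2.15 and 2.03 CPM. The endothelial level was 525-fold that of SMCs (SMCs over endothelial cells −9.04 ± 0.21 on the log2 scale, edgeR adjusted p = 9.08e-19), 265-fold that of fibroblasts (fibroblasts over endothelial cells −8.05 ± 0.21, adjusted p = 7.72e-18) and 296-fold that of mesothelial cells (endothelial over mesothelial cells 8.21 ± 0.29, adjusted p = 1.20e-15). With doublets kept these log2 values were −7.50, −7.13 and 7.61, and without aorta 1 the first 2 were −8.26 and −7.43. No difference among the 3 lower types was called (edgeR adjusted p = 0.0685 to 0.902), although that between SMCs and fibroblasts (−0.99) was called without UMI limits (−1.03) and at resolution 0.5 (−1.21).

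Few *Cdh5* UMIs lay outside the endothelium, and in some blood cell clusters they came from 1 to 3 cells. Relative to the endothelial level, SMCs held 0.00138 and 0.00197 of *Cdh5*, under the lowest of the 7 endothelial markers in each aorta (0.00164 and 0.00200). Fibroblasts held 0.00268 and 0.00439, inside the range of the markers. In neutrophil-like cells, the cluster led by *S100a9* and *S100a8*, aorta 1 had 0 UMIs in 47 cells and aorta 2 had 9 UMIs in 2 of 37 cells (115 CPM). In a monocyte-like cluster led by *Plac8* and *Chil3*, 7 UMIs lay in 1 of 30 cells of aorta 2 and 0 in 51 cells of aorta 1. Erythroid cells of aorta 1 held 8 UMIs in 3 of 29 cells (39.2 CPM), beside endothelial markers that summed to 416 CPM, and those of aorta 2 held 0 beside a sum of 31.2 CPM. The part of endothelial RNA or of endothelial cells joined to other cells in these values was not tested.

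*Cdh5* also varied within the endothelium. It was lowest in the lymphatic cluster led by *Ccl21a* and *Mmrn1* (282 and 422 CPM, 47 and 76 cells) and highest in the cluster led by *Gpihbp1* and *Fabp4*, genes known from capillaries (989 and 1300.0 CPM, 39 and 48 cells). The clusters led by *Cytl1* and *Pecam1* and by *Adra2a* and *Stmn2* lay between them at 573 to 632 CPM, and the order was the same in both aortas. At 1000 UMIs per cell, 42.7% and 45.6% of endothelial cells and 0.0481% and 0.0661% of SMCs had a *Cdh5* UMI. Without thinning the shares were 81.4% and 78.8% against 0.481% and 0.859%.

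*Cdh6* marked SMCs. K-cadherin is known from the developing kidney and neural crest. Its gene stood at 56.9 and 63.2 CPM in SMCs (964 and 745 UMIs), which held 96.8% and 96.4% of its UMIs. Fibroblasts held 4 and 9 UMIs (0.427 and 1.40 CPM), endothelial cells 3 and 5 (0.943 and 1.99 CPM) and mesothelial cells 0 and 1. The log2 fold change of SMCs was 6.19 ± 0.28 over fibroblasts and 5.57 ± 0.34 over endothelial cells (edgeR adjusted p = 9.00e-14 and 8.16e-12), and the CPM ratio to mesothelial cells was 169 (30.4 to 6697, adjusted p = 1.80e-10). Fibroblasts held 0.00751 and 0.0222 of the SMC level of *Cdh6*, under the lowest of 6 SMC markers there (0.0278 and 0.0243). In endothelial and mesothelial cells the ratio was under the markers in aorta 1 (0.0166 and 0) and inside their range in aorta 2 (0.0316 and 0.0160), and in lymphocytes it was inside in aorta 1 (0.0294) and under in aorta 2 (0.0345). Among cells with 5000 to 25000 UMIs endothelial *Cdh6* was 10.1 CPM and SMCs exceeded it at 2.82 on the log2 scale, still called. With doublets kept the values were 5.29 over fibroblasts, 4.69 over endothelial cells and 4.55 over mesothelial cells. The fitted value over mesothelial cells was 7.56 ± 0.54, and it was 5.50 without aorta 1 and 6.71 without aorta 2. Without aorta 1 the values over fibroblasts and endothelial cells were 5.06 and 4.77. Differences among the other 3 types were not called (edgeR adjusted p = 0.296 to 0.547), and they rested on few UMIs. The log2 fold change of fibroblasts over endothelial cells was −0.62. That of endothelial over mesothelial cells was 1.99, and it was −0.15 with doublets kept, 0.73 without aorta 1 and 1.32 without aorta 2. Both were called among cells with 5000 to 25000 UMIs (−3.78 and 4.49) and with endothelial cells gated singly (−1.70 and 3.06). Fibroblasts over mesothelial cells stood at 1.37, and at −0.74 with doublets kept and 0.44 without aorta 1.

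The 250 bases before the start site of *Cdh6* are shown because nearly all of its UMIs lay in SMCs, and no other member had an entry in the promoter table used. The sequence is from RefSeq (GRCm38.p6, chr15:13173676-13173925, minus strand, 5′ to 3′). Capitals mark a match to CANNTG, the general E-box motif of basic helix-loop-helix factors, found from base 236.
Cdh6: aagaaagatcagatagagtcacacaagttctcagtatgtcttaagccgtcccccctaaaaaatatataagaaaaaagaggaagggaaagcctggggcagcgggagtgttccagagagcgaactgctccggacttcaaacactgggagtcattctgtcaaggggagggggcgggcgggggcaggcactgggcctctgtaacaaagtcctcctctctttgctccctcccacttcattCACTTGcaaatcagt
The window held 1 E-box and 0 CArG boxes, the element of serum response factor known from contractile genes. Both motifs read the same on either strand. An E-box was present in 66.2% and a CArG box in 1.47% of 32851 RefSeq promoter windows of 250 bases from 27025 genes. The gene spans chr15:13028701-13173675 on the minus strand.

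Within SMCs *Cdh6* followed the clusters. It stood at 57.9 to 93.2 CPM in the clusters led by *Hspa1a* and *Atf3*, by *Sncg* and *Mustn1* and by *Mylk4* and *Wif1*. In the cluster led by *Rgs5* and *Lrrtm3*, the one whose name depended on the rule and which also held *Dlx5* and *Dlx6* among its leading genes, it stood at 19.2 and 26.6 CPM in 483 and 419 cells. In the cluster led by *Tnfrsf11b* and *Fst* it was 7.18 and 10.5 CPM in 135 and 80 cells. The first 3 of these clusters lay above the last 2 in both aortas. Reporter RNA for eGFP was high in all 5 (3113 to 6995 CPM), and was lowest in the *Tnfrsf11b* cluster, where tdTomato stood at 356 and 316 CPM against at most 64.5 CPM in the other SMC clusters. At 1000 UMIs per cell 4.91% and 5.75% of SMCs, 0.0668% and 0.0945% of fibroblasts and no mesothelial cell had a *Cdh6* UMI. Without thinning these shares were 28.6% and 30.1%, 0.267% and 0.756%, and 0% and 0.641%.

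*Cdh11* was highest in mesothelial cells, followed by fibroblasts. OB-cadherin is known from osteoblasts and from fibroblasts in fibrotic tissue. Its gene stood at 639 and 539.8 CPM in mesothelial cells, at 135 and 118 CPM in fibroblasts, at 15.2 and 14.3 CPM in SMCs and at 17.3 and 11.2 CPM in endothelial cells. Fibroblasts, the larger population, held 45.3% and 50.3% of its UMIs and mesothelial cells 42.6% and 35.4%. The 6 fibroblast markers summed to 5824 and 6233 CPM in mesothelial cells and to 25035 and 24764 CPM in fibroblasts. In mesothelial cells 1 of the 6 was detected in at least 25% of cells, and in fibroblasts all 6 were. The part of fibroblast RNA in the mesothelial *Cdh11* level was not tested. Mesothelial cells exceeded fibroblasts (log2 fold change of fibroblasts over mesothelial cells −2.01 ± 0.12, edgeR adjusted p = 2.11e-11), and fibroblasts exceeded SMCs (−3.04 ± 0.14 for SMCs over fibroblasts, adjusted p = 6.98e-14) and endothelial cells (3.26 ± 0.18, adjusted p = 2.13e-12). Mesothelial cells stood 33.3-fold above SMCs and 38.5-fold above endothelial cells (log2 fold changes of SMCs and of endothelial cells over mesothelial cells −5.06 ± 0.14 and −5.27 ± 0.17, adjusted p = 6.09e-17 and 1.20e-15). With doublets kept SMCs were at −3.63 against fibroblasts and −5.64 against mesothelial cells. SMCs and endothelial cells overlapped, and their difference was not called (0.21 ± 0.21, edgeR adjusted p = 0.438) and was negative under 4 other settings, −0.42 with doublets kept. At 1000 UMIs per cell 42.1% and 43.6% of mesothelial cells, 12.8% and 11.8% of fibroblasts and 0.110% and 0.348% of myeloid cells had a *Cdh11* UMI. Without thinning these shares were 83.9% and 82.1%, 40.2% and 37.0%, and 1.32% and 1.05%.

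*Cdh11* varied widely among fibroblasts. The cluster led by *Dio2*, *Mmp3* and *Lum* had the highest level (237 and 211 CPM, 489 and 287 cells). The clusters led by *C7* and *Hhip* (142 and 198 CPM) and by *Penk* and *Gpx3* (88.5 and 83.7 CPM) followed. The clusters led by *Pla1a* and *Pi16* (25.8 and 22.2 CPM) and by *Mab21l2* and *Mme* (20.1 and 7.73 CPM) were lowest. In both aortas these clusters kept the same order. The *Mab21l2* cluster carried eGFP RNA at 2667 and 4182 CPM, against 54.9 to 169 CPM in the other fibroblast clusters, and without it the fibroblast fold changes of *Cdh11* kept their calls. In SMCs, 106 of 257 and 51 of 169 *Cdh11* UMIs came from the *Tnfrsf11b* cluster (127 and 107 CPM), which was low in *Cdh6*. The other SMC clusters stood at 3.88 to 21.4 CPM. Mesothelial cells kept a high level in both clusters, at 653 and 552 CPM in the *Upk3b* cluster and 531 and 385 CPM in the *Cxcl13* cluster.

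**Figure D3:**
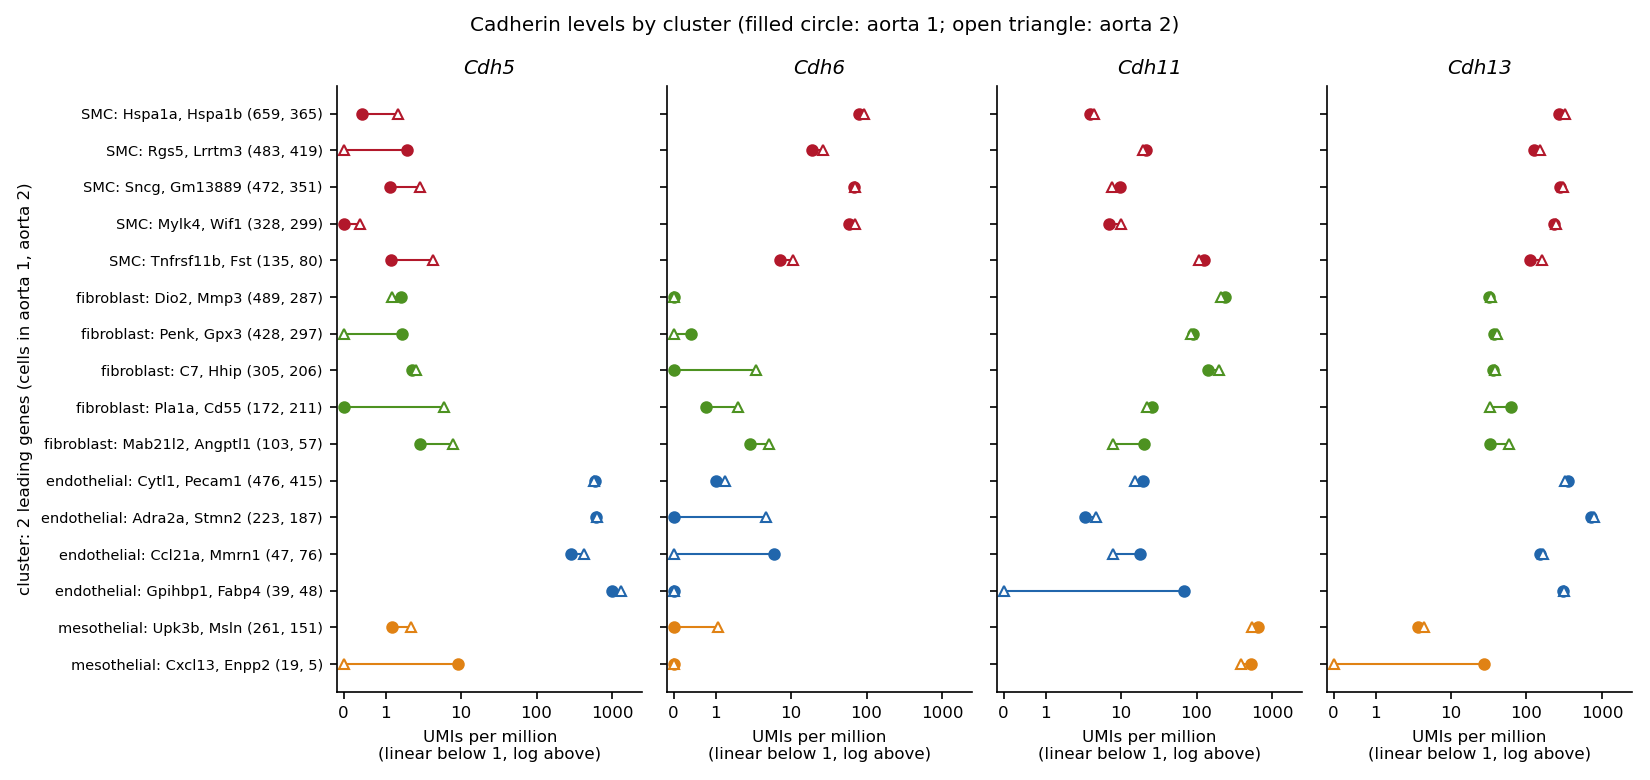
Level in CPM (x axis, linear below 1 and logarithmic above) of 4 cadherins in each cluster of SMCs, fibroblasts, endothelial and mesothelial cells (y axis), named by its 2 leading genes with its cells in each aorta. Filled circles are aorta 1 and open triangles aorta 2. In the *Tnfrsf11b* cluster of SMCs *Cdh6* was lowest (7.18 and 10.5) and *Cdh11* highest (127 and 107) among SMC clusters.

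*Cdh13* was shared by endothelial cells and SMCs. T-cadherin is known as a receptor for adiponectin and low-density lipoprotein on vascular cells. Its gene stood at 445 and 430.0 CPM in endothelial cells, at 226 and 250.3 CPM in SMCs, at 38.0 and 37.7 CPM in fibroblasts and at 6.45 and 4.05 CPM in mesothelial cells. No pair of these types overlapped. SMCs, the larger population, held 65.8% and 67.3% of its UMIs and endothelial cells 24.4% and 24.6%. SMCs exceeded fibroblasts (log2 fold change 2.70 ± 0.13, edgeR adjusted p = 6.10e-14) and mesothelial cells (5.66 ± 0.24, adjusted p = 1.05e-14), and fibroblasts exceeded mesothelial cells (2.96 ± 0.30, adjusted p = 4.65e-08). With doublets kept the mesothelial level was 18.4 CPM, and the log2 fold changes over it were 3.96 for SMCs, 1.35 for fibroblasts and 4.63 for endothelial cells. The endothelial level passed that of fibroblasts (−3.40 ± 0.13 for fibroblasts over endothelial cells, adjusted p = 2.54e-15) and of mesothelial cells (6.36 ± 0.23, adjusted p = 1.86e-15). Between SMCs and endothelial cells the log2 fold change was −0.70 ± 0.11 with an adjusted p of 2.06e-05, under the fold threshold, and it ran from −0.84 to −0.47 over the other settings.

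*Cdh13* also divided the endothelium. The cluster led by *Adra2a* and *Stmn2*, with *Gkn3*, *Bmx* and *Sox17* (genes known from arterial endothelium) among its leading genes, stood at 722 and 791 CPM. The cluster led by *Cytl1* and *Pecam1* stood at 355 and 328 CPM and the *Gpihbp1* cluster at 304 and 313 CPM. The lymphatic cluster was lowest at 150.1 and 166 CPM. *Cdh13* was thus highest in another cluster than *Cdh5*, which peaked in the *Gpihbp1* cluster, and both were lowest in the lymphatic cluster. Among SMC clusters, the *Hspa1a*, *Sncg* and *Mylk4* clusters held *Cdh13* at 232 to 320 CPM and the *Rgs5* and *Tnfrsf11b* clusters at 113 to 160.0 CPM, the same split as for *Cdh6* but narrower. Fibroblast clusters lay between 31.9 and 61.7 CPM. In fibroblasts *Cdh13* stood at 0.0854 and 0.0877 of its endothelial level, above the highest of 7 endothelial markers there (0.0381 and 0.0324). At 1000 UMIs per cell 31.1% and 33.3% of endothelial cells, 19.1% and 20.7% of SMCs and 0.714% and 0% of mesothelial cells had a *Cdh13* UMI. Without thinning, SMCs had the larger share (68.1% and 69.6% against 60.9% and 58.4% of endothelial cells, and 1.43% and 1.28% of mesothelial cells), at the greater depth of SMCs.

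The proteins that cadherins bind or are joined to were read from a list of 21 adherens junction genes, 20 of which were tested. Of these, 9 were called between SMCs and fibroblasts (4 higher in SMCs, background 23.7%), 15 between SMCs and endothelial cells (5 higher in SMCs, background 27.2%) and 10 between SMCs and mesothelial cells (5 higher in SMCs, background 27.0%). Between fibroblasts and endothelial cells 11 were called (1 higher in fibroblasts, background 23.3%) and between endothelial and mesothelial cells 10 (6 higher in endothelial cells, background 23.2%). Between fibroblasts and mesothelial cells 6 of the 20 were called (3 higher in each), a share near the background of 22.5%. The list's median log2 fold change was lowest for fibroblasts over endothelial cells (−0.88) and SMCs over endothelial cells (−0.77), where the medians of the background genes were 0.04 and 0.02 and those of all fitted genes 0.03 and 0.00. Under DESeq2 10 and 9 of these genes were higher in endothelial cells than in SMCs and fibroblasts, and the median between SMCs and fibroblasts turned from 0.19 to −0.02. *Ptprb*, the phosphatase VE-PTP that binds VE-cadherin, was at 2191 ± 7.1 CPM (SD, n = 2) in endothelium and 7.28 ± 0.27 CPM in SMCs (SMCs over endothelial cells −8.05 ± 0.28 on the log2 scale, edgeR adjusted p = 3.17e-16). *Ptprm*, another receptor phosphatase of cadherin junctions, was 113 ± 0.46 CPM in endothelial cells and 17.4 ± 0.98 CPM in fibroblasts (fibroblasts over endothelial cells −2.56 ± 0.15, adjusted p = 4.59e-12).

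Some junction partners were highest in SMCs and others in mesothelial cells. *Ctnna3*, encoding an α-catenin known from heart muscle, was 23.3 ± 1.6 CPM in SMCs against 1.31 ± 0.35 CPM in fibroblasts (log2 fold change 4.23 ± 0.31, edgeR adjusted p = 1.75e-10). *Pkp4*, a catenin of the p120 family, stood at 188 ± 2.3 CPM against 16.0 ± 3.9 CPM (3.58 ± 0.15, adjusted p = 1.44e-14), and *Vcl* (vinculin, which anchors actin) at 407 ± 5.5 CPM against 86.3 ± 6.0 CPM (2.29 ± 0.15, adjusted p = 2.08e-11). *Lima1*, which links α-catenin to actin filaments, went the other way, with 29.5 ± 0.63 CPM in SMCs against 249 ± 4.7 CPM in fibroblasts (−3.02 ± 0.12, adjusted p = 3.89e-15). Mesothelial cells had the highest levels of *Nectin2*, an adhesion molecule of adherens junctions (95.8 ± 5.1 CPM against 4.98 ± 0.66 CPM in fibroblasts, fibroblasts over mesothelial cells −4.04 ± 0.23, adjusted p = 9.90e-12), and of *Plekha7*, which binds p120-catenin at epithelial junctions (26.7 ± 6.3 CPM against 0.841 ± 0.13 CPM; −4.80 ± 0.42, adjusted p = 6.08e-09).

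**Figure D4:**
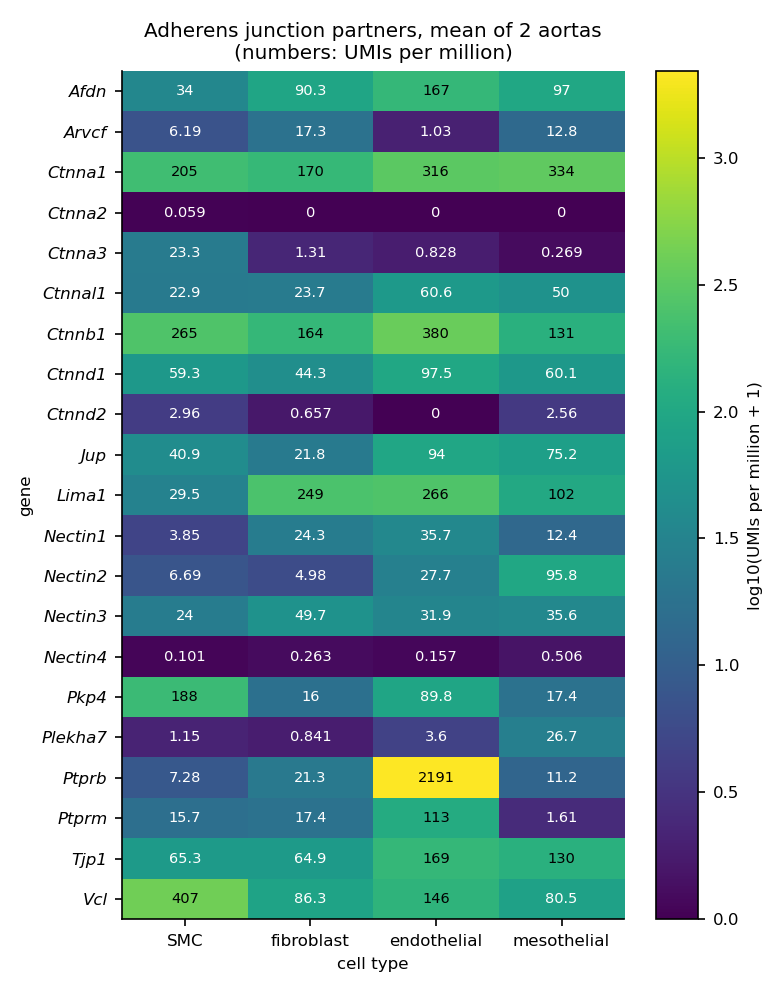
Mean level over 2 aortas of 21 adherens junction genes (rows) in 4 cell types (columns). Numbers are CPM and color is log10(CPM + 1). *Ptprb* stood out in endothelial cells (2191), *Vcl* in SMCs (407) and *Nectin2* in mesothelial cells (95.8).

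Of 51 other genes of the cadherin superfamily 22 were tested, and between 10 (SMCs against mesothelial cells) and 17 (fibroblasts against mesothelial cells) of them were called, shares of 45.5% and 77.3% where the background ran from 22.5% to 27.2%. These counts moved under DESeq2, from 4 higher in SMCs and 7 higher in fibroblasts to 2 and 4, and from 9 higher in fibroblasts and 5 higher in endothelial cells to 7 and 2. *Pcdh7*, a protocadherin, was 775 ± 23 CPM in SMCs against 157 ± 11 CPM in fibroblasts (log2 fold change 2.35 ± 0.14, edgeR adjusted p = 3.47e-12). *Pcdh19* showed the reverse pattern with 0.642 ± 0.43 CPM in SMCs against 71.0 ± 22 CPM in fibroblasts (−6.55 ± 0.30, adjusted p = 3.98e-14), as did *Pcdh18* at 10.5 ± 0.65 and 55.6 ± 3.5 CPM (−2.35 ± 0.15, adjusted p = 7.90e-12). *Cdh18*, a type II cadherin outside the members, had 312 UMIs in SMCs and 0 in endothelial cells, at least 7.84-fold higher (floor of 3 UMIs per library). The desmosomal cadherin *Dsg2* had 91 UMIs in mesothelial cells and 0 in fibroblasts, at least 67.2-fold higher in mesothelial cells. *Celsr1*, a cadherin of planar cell polarity, stood at 24.5 ± 1.4 CPM in endothelial cells and 0.566 ± 0.20 CPM in SMCs (−5.13 ± 0.31, adjusted p = 9.75e-12). The list's median log2 fold change ran from −0.70 (SMCs over fibroblasts, background genes −0.04) to 2.38 (fibroblasts over mesothelial cells, background genes 0.13), and the latter was 0.76 with genes at 0 in a cell type set to their bound.

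Regulators of cadherin shedding and of epithelial-mesenchymal transition, 10 genes that were all tested, included 8 that were higher in fibroblasts than in SMCs and 0 that were higher in SMCs (background 23.7% in either direction, list median log2 fold change −1.22, against −0.04 for the background genes). Size factors of DESeq2 shifted the median of the background genes by −0.21 in this comparison, and 9 of the list were then higher in fibroblasts. *Twist2*, a transcription factor of mesenchyme, was 5.06 ± 0.44 CPM in SMCs against 50.9 ± 1.5 CPM in fibroblasts (−3.26 ± 0.18, edgeR adjusted p = 7.82e-13), and *Snai1*, a repressor of *Cdh1*, at 4.72 ± 1.2 and 20.2 ± 1.1 CPM (−2.06 ± 0.23, adjusted p = 1.73e-07). The sheddase gene *Adam10*, whose product cleaves cadherins at the membrane, was highest in endothelial cells at 315 ± 6.7 CPM against 26.4 ± 0.091 CPM in SMCs (−3.39 ± 0.11, adjusted p = 1.54e-16). In the other 5 comparisons 5 to 7 of the 10 genes were called (background 22.5% to 27.2%).

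The genes whose levels ran most closely with each cadherin were found over 54 sums of 27 clusters and 2 aortas, on log2(CPM + 10), among 9450 genes. These sums share libraries and cell types, and the values are descriptions. For *Cdh5* they were *Rasip1* (Pearson r = 0.981), *Tie1* (0.979) and *Egfl7* (0.976), for *Cdh3* the mesothelial genes *Wt1* (0.931), *Lrrn4* (0.925) and *Upk1b* (0.919), and for *Cdh6* the muscle genes *Xirp1* (0.950, a gene that overlaps *Cx3cr1*), *Ldb3* (0.939) and *Mylk4* (0.927). *Cdh11* ran with *Aldh1a1* (0.903), *Chrdl1* (0.872) and *Glis2* (0.862), *Cdh13* with *Asap2* (0.929), *Kalrn* (0.905) and *Sorbs2* (0.885), and *Cdh2*, with its low counts, with *Foxs1* (0.794) and *Vwc2* (0.769). Of these genes *Tie1*, *Egfl7*, *Wt1*, *Lrrn4* and *Upk1b* were markers that had named the clusters, and *Rasip1*, *Mylk4* and *Chrdl1* were used for clustering.

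Of the 7 genes, 5 lie on chromosome 8 of GRCm38, in the order *Cdh11* (chr8:102632095-102785642, minus strand), *Cdh5* (chr8:104101625-104144511, plus), *Cdh3* (chr8:106510891-106557297, plus), *Cdh1* (chr8:106603351-106670246, plus) and *Cdh13* (chr8:118283733-119324921, plus). The neighbours *Cdh3* and *Cdh1* had 354 and 2 UMIs in mesothelial cells. *Cdh2* lies on chromosome 18 (16588877 to 16809246, minus strand). Counted genes on the opposite strand overlap *Cdh2* (*Gm15485*), *Cdh5* (*Gm29682*) and *Cdh13* (*Gm45720* and *Gm45721*). Whether strand was used in counting is not given in the sources used here, so it is not known whether reads in these overlaps were told apart.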

How the data were processed

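Single-cell RNA sequencing (10x 3′ v3.1) was read from raw UMI counts per gene and cell that the authors deposited, made with Cell Ranger 4.0.0 per the file headers, on mm10 with eGFP and tdTomato sequences added. Seurat 4.0 is named in the submitters' processing notes. The files held 8947 and 6263 cells (47009780 and 30919996 UMIs). The labels give 6278 and 4300 cells after the study's filter, and the filter used here (over 200 genes, 1000 to 25000 UMIs, under 10% mitochondrial counts) left 6744 and 4698. Scrublet removed 201 (2.98%) and 89 (1.89%) doublets.

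Cells were clustered with scanpy 1.11.5 and leidenalg 0.10.2 in Python 3.11.15 (2000 variable genes without cadherin, junction and shedding genes, reporters and mitochondrial genes, 30 components, 15 neighbours, resolution 1), giving 31 clusters. A name required 3 markers of a class, each in 25% of cells. A cluster stayed unnamed with 2 markers of another class among its 10 leading genes, or at a median depth under 33.3% of its own aorta's with no leading marker of its own, and 28 clusters were named. This rule was loosened after cluster tables and cadherin levels had been seen, and the first form, which left the *Rgs5* cluster of SMCs unnamed, is kept as an alternative. That form also leaves a cluster unnamed when markers of another class outnumber its own among its leading genes. This applies to the myeloid cluster led by *Mrc1* and *Folr2* (537 and 335 cells), whose leading genes held *Lyve1* and no myeloid marker. The members and gene lists were chosen with earlier results of these data known.

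Sums of the 7 types (14 sums) entered 1 model of edgeR 4.0.16 in R 4.3.3 (TMM, filterByExpr, cell type as the only term). The SE is the absolute log2 fold change over the square root of F. Fold changes are TMM-scaled and CPM values are not. The procedure was tested on simulated data. All 7 cadherins are named. From each list, up to 3 called genes per direction and comparison with the largest fold change could be named. Likeness took the 3 genes with the highest r. For *Cdh2* 1 of them is not reported here. Intervals are exact 95% intervals of counts, and floors are 3 UMIs, and both cover counting error only. The cell types share aortas, so sums with the same number come from the same animal. Over 21 pairs of cell types their deviations correlated at −0.036 to 0.102. Each aorta is 1 animal's library, with p-values resting on 2 animals. Alternatives were other cell filters, doublets kept, resolutions 0.5 and 2, cadherin genes allowed in clustering, endothelial cells gated singly, DESeq2 1.42.0, no count filter, 4 types only, a replicate block, each aorta left out, and 3 chosen after seeing the data.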

Additional observations from a re-analysis of the deposited data

How the results depend on the processing

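Of 504 cadherin fold changes under another setting with a test (36 results, 14 settings), 479 kept their direction and call, 3 lost a call, 12 gained one and 10 changed sign, none of the last being called. With the aorta as a replicate block the counts of called cadherins were 4, 4, 5, 4, 3 and 5, as without it, and the block changed no call. Cells with 5000 to 25000 UMIs gave 2 called cadherins between SMCs and endothelial cells. The calls lost were *Cdh2* (1.36) and *Cdh3* (0.57) there, and *Cdh2* between SMCs and mesothelial cells without the *Cxcl13* cluster (−0.64). Log2 fold changes that turned sign were *Cdh11* between SMCs and endothelial cells without UMI limits (−0.33), with doublets kept (−0.42), at resolution 0.5 (−0.32) and with gated endothelial cells (−0.20). With doublets kept, *Cdh5* between SMCs and mesothelial cells was 0.11, and *Cdh6* was −0.74 between fibroblasts and −0.15 between endothelial cells and mesothelial cells. *Cdh5* between fibroblasts and mesothelial cells was −0.16 with 5000 to 25000 UMIs, *Cdh3* between fibroblasts and endothelial cells 0.11 without UMI limits, and *Cdh2* between fibroblasts and mesothelial cells 0.12 without the *Cxcl13* cluster. The cause was not tested. Leaving out an aorta leaves no residual degrees of freedom, so it gave values without a test, and the counts past a log2 fold change of 1 lay between 3 and 6. Under DESeq2 the share of called genes higher in SMCs moved from 42.4% to 31.3% against fibroblasts and from 51.3% to 38.9% against mesothelial cells, with median shifts of −0.21 and −0.25 (−0.14 against endothelial cells).

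With 2 aortas the tests rest on little replication, and *Cdh1* could not be compared at 9 UMIs. Levels of a few UMIs in a cell type carry wide intervals.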

Other observations

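Unnamed cells, most of them low in depth (medians of 1414 and 1452.5 UMIs), held cadherins too. In the unnamed cluster led by *Cyb5r3* and *Pkp4* (271 and 176 cells), *Cdh13* stood at 211 and 213 CPM and *Cdh6* at 22.2 and 22.9 CPM, and eGFP RNA at 5372 and 4823 CPM. In the unnamed cluster led by *Fcrls* and *Pf4*, genes known from macrophages (62 and 26 cells), *Cdh13* stood at 154 and 256 CPM (24 and 13 UMIs in 8 and 4 cells) and eGFP RNA at 3087 and 2224 CPM. In the named macrophage-like cluster led by *Mrc1* and *Folr2* (537 and 335 cells), *Cdh13* stood at 7.25 and 1.62 CPM and eGFP RNA at 84.9 and 66.5 CPM.

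In the T cell-like cluster led by *Rag1* and *Arpp21* (120 and 72 cells), *Cdh13* stood at 15.8 and 37.3 CPM (5 and 8 UMIs), and eGFP RNA at 625 and 760.2 CPM.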
